A study of Lolium multiflorum with 4 samples.

Results

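LmHC and LmLC seedlings of Italian ryegrass (Lolium multiflorum) were compared after 24 h in 300 µM cadmium chloride, by RNA sequencing of 1 library each. The comparison uses 2 of the series' 4 libraries. The other pair, LmHC and LmLC at 0 h, was sampled before any cadmium and serves here as a yardstick. The series expands LmHC as high cadmium and LmLC as low cadmium, and they are read here as 2 plant lines, since the series names them as separate seed stocks. The sample labels instead enter high and low cadmium as a treatment, and give Dg and Vm as earlier names without explaining them. Both kinds of seedling grew on agar and then in Hoagland solution, and were 2 weeks old when treated. The labels do not name the organ, the number of seedlings in a library or the sense of high and low. Contigs were kept when their mean over the 4 libraries was at least 1 FPKM (a fragment count scaled for contig length and for the library's mapped fragments), which held for 70886 of the 111761 contigs in the table.

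Cadmium has no known role in the metabolism of grasses and enters roots through carriers of essential metals such as iron, zinc and manganese. Plant cells bind it with glutathione, phytochelatins and other thiol compounds and store much of it in vacuoles. The series set out to find transcripts, cadmium transporters among them, that differ between LmHC and LmLC. The table does not pair its contigs with gene names, so contigs and clusters are given here by their names alone and no function is assigned to any of them.

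A contig is a stretch of transcript put together from reads. Names that begin with CL give the assembly cluster that a contig belongs to, a set of similar contigs that may be splice forms, alleles or gene copies. Names that begin with Unigene stand alone. A difference between 2 libraries can therefore take different forms: a cluster can be higher or lower as a whole, or its contigs can trade places while the sum stays about the same. The division of the 24 h difference into these forms is the question followed here. A related point of method bears on every swap: RSEM, which the submitters' processing notes name, divides fragments that match several contigs among them, so the values of contigs in 1 cluster depend on each other. How far this sets the swaps was not tested.

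Of the 70886 contigs, 27886 stood alone and 43000 carried a cluster name. Among those with a cluster name, 40063 contigs lay in 10812 clusters with 2 or more contigs that passed, and 2937 were the lone passing contig of their cluster. The clusters held a median of 3 passing contigs and at most 46. Column totals were 782476 FPKM in LmHC and 795368 FPKM in LmLC at 24 h. Among 5460 low stand-alone contigs, the most frequent log2 ratio of LmHC over LmLC at 24 h was -0.04. Read as depth, it would put LmHC at 1.028 times LmLC, within a search that covered less than 2-fold either way. FPKM is already scaled for mapped fragments, so that reading holds only if these contigs rest on equal, very small numbers of fragments. This is not known, and the value does not show that the depths were alike. The number of fragments is unknown, and no interval for counting error is given. With 1 library in each group there is no test of any difference, and a line cannot be told apart from its plants or its library.

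Among contigs in clusters, most of those that differed at 24 h did so while their cluster sum stayed within 2-fold. A contig was counted as past 2-fold when log2 of (FPKM + 1) in LmHC over (FPKM + 1) in LmLC was at least 1 in size, a scale that understates differences of low contigs. By this measure 3159 contigs (4.46%) were higher in LmHC and 5056 (7.13%) were higher in LmLC. Of these 8215 contigs, 3804 (46.3%) stood alone, 331 were the lone contig of a cluster and 4080 (49.7%) lay in clusters of 2 or more. Among the 4080, the cluster sum was past 2-fold the same way for 754 (18.5%). The sum stayed within 2-fold for the rest, apart from 14 contigs that went against their sum: 2446 (60.0%) lay in clusters with differences in 1 direction only, and 866 (21.2%) in clusters with contigs past 2-fold toward each line.

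The division was not the same toward LmHC and toward LmLC. In clusters, 1442 contigs (3.6% of those in clusters) were higher in LmHC, of which 285 (19.8%) moved with their sum, 746 (51.7%) in 1 direction only and 401 (27.8%) in swaps. Toward LmLC, the 2638 contigs (6.58%) divided into 469 (17.8%), 1700 (64.4%) and 465 (17.6%). The contigs in question were mostly a small piece of their cluster: their median share of the cluster sum, in the line where they were higher, was 17.8% toward LmHC and 12.1% toward LmLC. The median share was 42.3% and 42.6% for those that moved with their sum. This contrast follows in part from the rules, since a small contig can pass 2-fold and leave its sum within 2-fold. The median share over all contigs in clusters was not counted.

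At 0 h, 1761 contigs (2.48%) leaned past 2-fold to LmHC and 3139 (4.43%) to LmLC. Of the 2357 in clusters, 354 (15.0%) moved with their sum, 1622 (68.8%) were in 1 direction only and 376 (16.0%) lay in swaps. The order of the classes was the same at both times at these settings, and no difference between the times was tested. At 24 h the order of swaps and contigs that moved with their sum depended on the setting, as given below. Contigs past 2-fold carried 26.9% of the summed absolute difference of 223358 FPKM at 24 h, so that most of that difference lay in contigs within 2-fold.

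**Figure D1:**
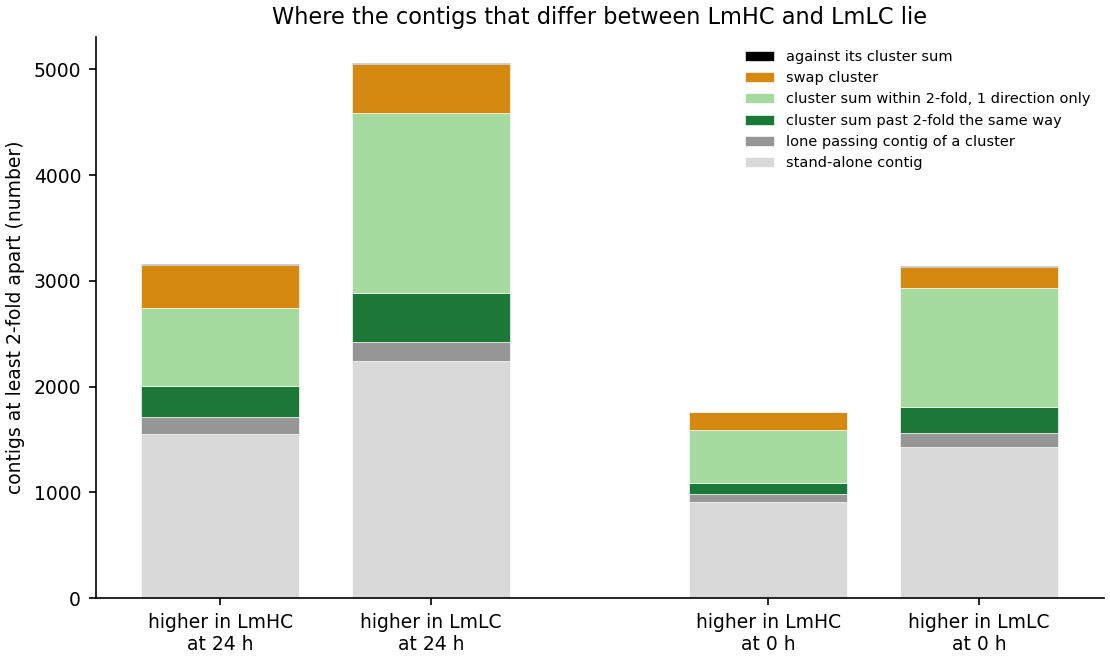
Number of contigs at least 2-fold apart (vertical axis), by the line where they were higher and by time, split by the kind of cluster they lie in. The bars for 24 h reach 3159 contigs for LmHC and 5056 for LmLC, and contigs outside clusters or in clusters whose sum stayed within 2-fold make up most of each bar.

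Summed over their passing contigs, few clusters differed. The sum was at least 2-fold higher in LmHC for 186 of 10812 clusters (1.72%) and in LmLC for 274 (2.53%). At 0 h these numbers were 93 (0.86%) and 141 (1.3%). The middle 90% of log2 ratios of the sums ran from -0.75 to 0.70 at 24 h, against -1.19 to 0.89 for the single contigs of the same clusters. At 8-fold, 1 of the 10812 clusters was higher in LmHC and 33 were higher in LmLC. Of the 40063 single contigs in the 10812 clusters, 10 and 303 were. Clusters close to the limit were about as many as those just past it: within 0.1 log2 units below 2-fold lay 71 toward LmHC and 77 toward LmLC, and within 0.1 above it 54 and 62. The lean toward LmLC among sums depended on the scaling: with median-of-ratios scaling the sums divided into 244 higher in LmHC and 243 higher in LmLC. With a pseudocount of 5 FPKM they were 47 and 122. Among single contigs the lean was smaller with median-of-ratios scaling but remained, at 4163 higher in LmHC and 5087 higher in LmLC.

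**Figure D2:**
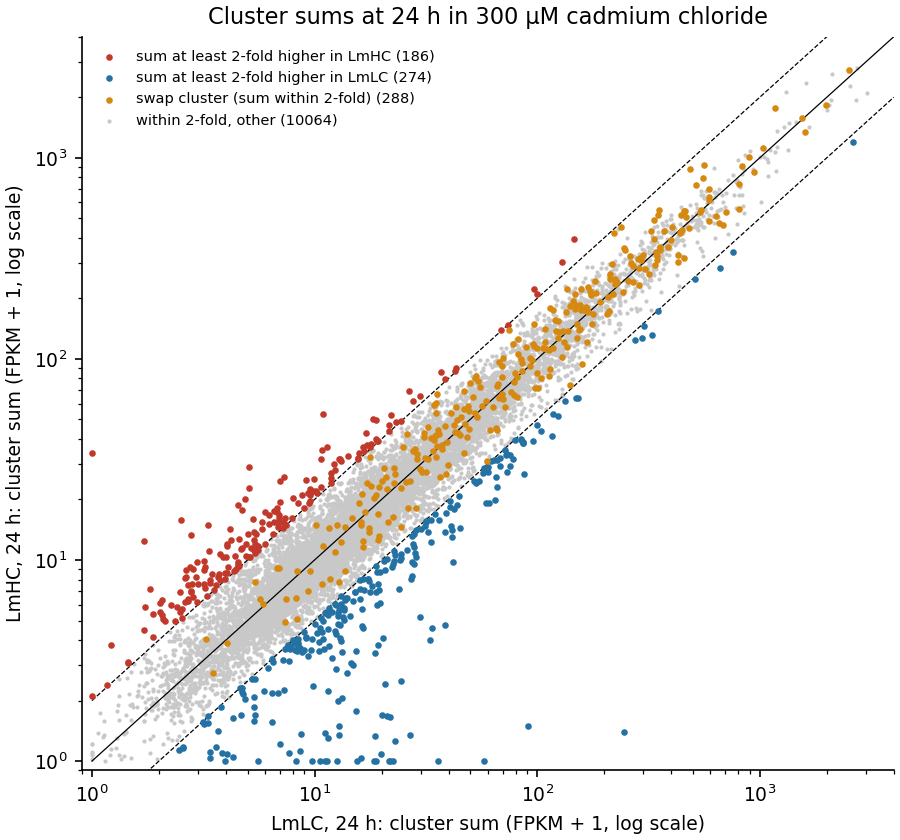
Sum of FPKM + 1 of each cluster in LmHC (vertical, log scale) against LmLC (horizontal, log scale) at 24 h. The solid line marks equality and the dashed lines 2-fold: 186 clusters lie above and 274 below, where a tail of clusters reaches 0 in LmHC, and the 288 swap clusters lie between.

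A difference shared by every contig of a cluster was rarer still. Of the 186 clusters higher in LmHC, 34 had all passing contigs past 2-fold that way, 148 had some and 4 had a contig past 2-fold the other way. Of the 274 higher in LmLC, 77 had all, 190 had some and 7 had a contig against. Most of these clusters had 2 contigs. With 3 or more contigs, all past 2-fold, 6 clusters were higher in LmHC and 15 in LmLC, and at 0 h 0 and 10.

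The cluster with the largest ratio toward LmHC was CL4549. Its 2 contigs summed to 32.9 FPKM in LmHC at 24 h, with 19.1 FPKM in CL4549.Contig1_All and 13.8 FPKM in CL4549.Contig2_All, with 0 listed for both contigs in LmLC at 24 h and in both 0 h libraries. It is a cluster seen in 1 library of 4. CL10112, next in rank, summed to 11.4 FPKM in LmHC and 0.72 FPKM in LmLC at 24 h (a log2 ratio of 2.85), and to 8.12 FPKM in LmHC and 3.54 FPKM in LmLC at 0 h. Its difference lay in CL10112.Contig1_All, while CL10112.Contig2_All had 0.12 FPKM in both lines at 24 h.

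Among clusters of 3 or more contigs that were all past 2-fold, CL9295 had the largest ratio toward LmHC. Its sum was 14.8 FPKM in LmHC and 1.52 FPKM in LmLC at 24 h (a log2 ratio of 2.65), and 0.13 FPKM in LmHC and listed at 0 in LmLC at 0 h. Its 3 contigs had 4.53 to 5.52 FPKM in LmHC and 0.19 to 1.07 FPKM in LmLC at 24 h. CL5256 had 4 such contigs, with a sum of 52.0 FPKM in LmHC and 9.93 FPKM in LmLC at 24 h (a log2 ratio of 2.28). At 0 h the order of the lines was the other way round, with 5.63 FPKM in LmHC and 28.6 FPKM in LmLC (a log2 ratio of -2.16). The largest contig, CL5256.Contig2_All, held 45.9% of the sum in LmHC and 51.1% in LmLC at 24 h, beside 39.8% in LmHC and 38.4% in LmLC at 0 h. The smallest, CL5256.Contig6_All, held 7.86% in LmHC and 4.63% in LmLC at 24 h, beside 8.88% in LmHC and 10.1% in LmLC at 0 h.

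Toward LmLC the ratios were larger. CL12723, with 3 contigs, summed to 0.39 FPKM in LmHC and 243 FPKM in LmLC at 24 h (a log2 ratio of -7.46), and to 0.87 FPKM in LmHC and 0.57 FPKM in LmLC at 0 h. Its contig CL12723.Contig1_All had 55.0 FPKM in LmLC at 24 h and 0 FPKM listed in the remaining 3 libraries. The cluster was thus near 0 in every library but LmLC at 24 h. CL1372 had the same pattern, with 0.49 FPKM in LmHC and 90.3 FPKM in LmLC at 24 h (a log2 ratio of -5.94), and 0.14 FPKM in LmHC and 0.04 FPKM in LmLC at 0 h. CL8391, the second among clusters of 3 or more, differed at both times. Its sum was 0.35 FPKM in LmHC and 25.8 FPKM in LmLC at 24 h (a log2 ratio of -4.31), and 0.33 FPKM in LmHC and 9.16 FPKM in LmLC at 0 h. Its contigs CL8391.Contig4_All and CL8391.Contig5_All were listed at 0 in both LmHC libraries.

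**Figure D3:**
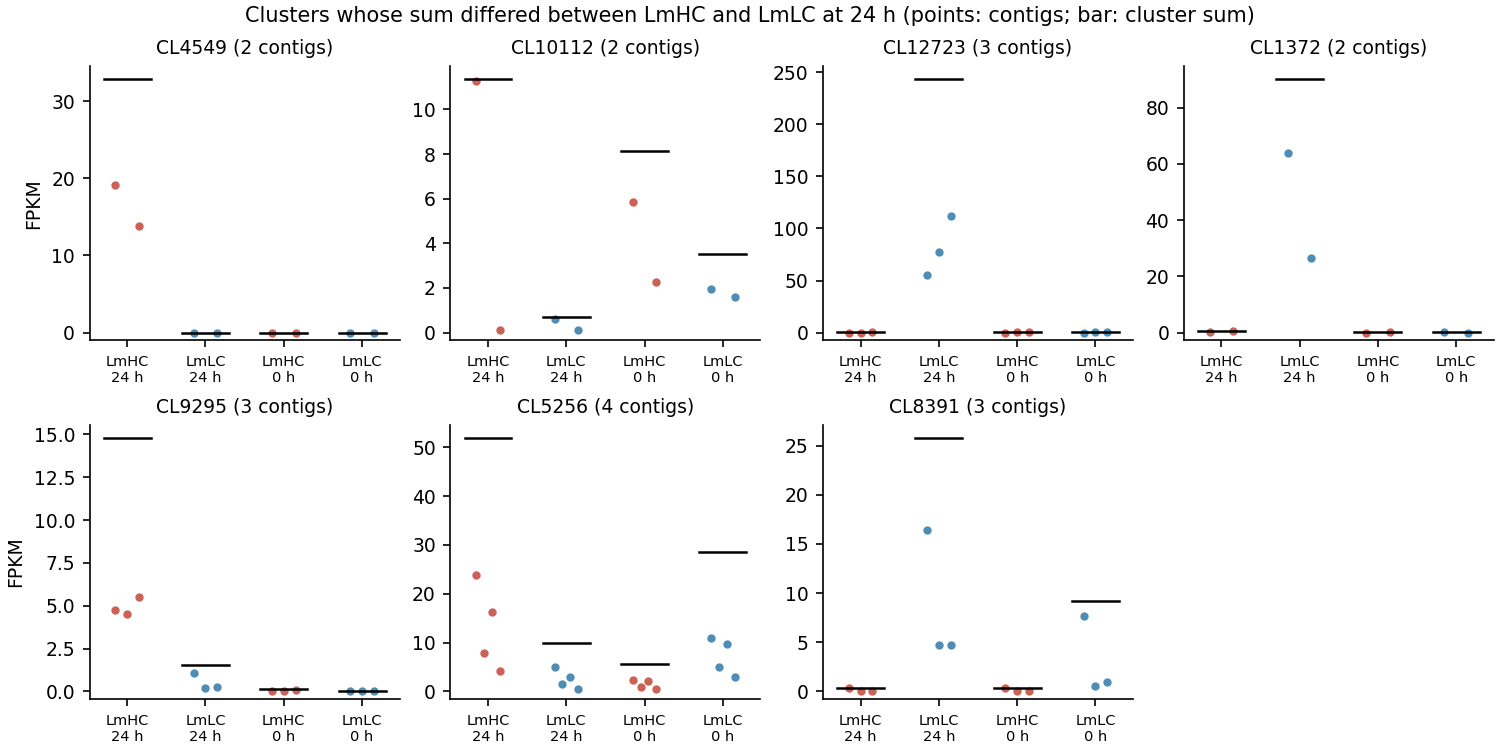
FPKM (vertical, scaled to each panel) in the 4 libraries for the 7 named clusters whose sums differed at 24 h; points are contigs and the bar is the cluster sum. CL4549 is above 0 only in LmHC at 24 h, CL12723 and CL1372 are near 0 outside LmLC at 24 h, and CL5256 is higher in LmHC at 24 h and in LmLC at 0 h.

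Few clusters were at 0 in a line, and contigs at 0 were found mostly in LmHC. At 24 h, 16 of the 10812 clusters were listed at 0 in LmHC with a sum of 1 FPKM or more in LmLC. In LmHC, 11 of them were at 0 at 0 h too. The other way, 2 clusters were at 0 in LmLC, 1 of them at 0 h too. Of the 70886 single contigs, 1520 were listed at 0 in LmHC with 1 FPKM or more in LmLC, and 204 the reverse. In clusters, 629 of the 692 such contigs at 0 in LmHC belonged to a cluster whose sum in LmHC was at least 1 FPKM, and 68 of the 73 at 0 in LmLC to such a cluster in LmLC. Within clusters, most contigs listed at 0 in a line thus had detected partners there. This is in part given by the rule, since a cluster needed 2 or more contigs that passed the filter. The share of all clusters with such a sum was not counted. By contrast, 780 of the 1520 and 121 of the 204 stood alone and have no partners in the table.

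Differences in part of a cluster made up the largest class. At 24 h, 1988 clusters (18.4%) had a sum within 2-fold and contigs past 2-fold in 1 direction only, 639 toward LmHC and 1349 toward LmLC. At 0 h these numbers were 448 and 952. The contigs past 2-fold differed by a median of 3.68 FPKM toward LmHC, which was 16.2% of the larger cluster sum. Toward LmLC the median was 4.55 FPKM and 11.6%. These are small parts of their clusters, in part because the rule keeps the sum within 2-fold. The remaining contigs show what else happened there.

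The remaining contigs of these clusters mostly did not make up for the difference. This is in part given by the rule, since clusters with a contig past 2-fold the other way were counted as swap clusters. The remaining contigs were thus all within 2-fold. Toward LmHC, the contigs within 2-fold differed the other way, on balance, in 228 of the 639 clusters (35.7%), and by at least as much in 84 (13.1%). Their summed level had a median log2 ratio of 0.12, on the same side as the contigs past 2-fold. Toward LmLC, they differed the other way in 627 of 1349 clusters (46.5%), and by at least as much in 305 (22.6%). Here the summed level of the remaining contigs had a median log2 ratio of -0.03, close to 0. At 0 h the medians were 0.08 toward LmHC and -0.00023 toward LmLC.

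Many of the contigs higher in LmLC were listed at 0 in LmHC. In the clusters with 1 direction they were at 0 in LmHC for 442 of 1700 (26.0%) at 24 h, and for 338 of these at 0 h too. Toward LmHC, 41 of 746 (5.5%) were at 0 in LmLC, and 2 of these at 0 h too. The shares were alike in swap clusters, where 147 of 465 contigs (31.6%) higher in LmLC were at 0 in LmHC and 21 of 401 (5.24%) higher in LmHC were at 0 in LmLC. Over all 5056 contigs higher in LmLC the share was 30.1%, and over the 3159 higher in LmHC it was 6.46%. Of all 1520 contigs higher in LmLC and at 0 in LmHC at 24 h, 1189 were at 0 in LmHC at 0 h too. Of all 204 higher in LmHC and at 0 in LmLC at 24 h, 56 were at 0 in LmLC at 0 h too.

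Swaps between contigs of 1 cluster were found in 288 clusters (2.66%) at 24 h, and in 142 (1.31%) at 0 h. A swap cluster has a sum within 2-fold and at least 1 contig past 2-fold toward each line. These clusters were large and abundant, with a median of 9 contigs and median sums of 85.0 FPKM in LmHC and 81.2 FPKM in LmLC at 24 h. The proportions within them differed moderately. The share of a cluster's FPKM that would have to pass to other contigs to turn the proportions of LmLC into those of LmHC had a median of 18.2%, with a middle range from 12.3% to 29.0% and extremes of 1.08% and 94.1%. The contig with the highest FPKM was another one in LmHC than in LmLC for 88 of the 288 clusters (30.6%). Among all 8657 clusters with a sum of 5 FPKM or more in both libraries, this held for 1299 (15.0%), of which 80 were swap clusters. Over the 8657 clusters the median share that would have to pass was 8.11%. The median over all clusters was 3 contigs, and these shares were not matched for size. The number of swap clusters depended on how low contigs were treated: it was 630 with a pseudocount of 0.1 FPKM, 41 with a pseudocount of 5 FPKM and 59 when contigs needed a mean of 5 FPKM.

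The swap cluster with the most exchanged FPKM was CL15094, with 23 contigs. Its sum was 1584 FPKM in LmHC and 1548 FPKM in LmLC at 24 h, and 1708 FPKM in LmHC and 1658 FPKM in LmLC at 0 h. Toward LmHC, CL15094.Contig12_All had 34.7 FPKM in LmHC and 6.41 FPKM in LmLC at 24 h (a log2 ratio of 2.27), and 98.2 FPKM in LmHC and 27.5 FPKM in LmLC at 0 h. Both times it was higher in LmHC. Toward LmLC, CL15094.Contig10_All had 48.9 FPKM in LmHC and 99.9 FPKM in LmLC at 24 h (a log2 ratio of -1.02), and 98.1 FPKM in LmHC and 129 FPKM in LmLC at 0 h. Its contig CL15094.Contig23_All was listed at 0 in both LmHC libraries and had 7.50 FPKM at 24 h and 5.97 FPKM at 0 h in LmLC. These contigs were minor, and the proportions of the lines differed by 10.2% of the cluster's FPKM. CL15094.Contig11_All, just within 2-fold, differed by more FPKM than any contig past 2-fold. It had 204 FPKM in LmHC and 102 FPKM in LmLC at 24 h (a log2 ratio of 0.997). Its share was 12.8% in LmHC and 6.56% in LmLC.

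In CL4458, with 8 contigs, the sum was 447 FPKM in LmHC and 479 FPKM in LmLC at 24 h, against 110 FPKM in LmHC and 115 FPKM in LmLC at 0 h. CL4458.Contig1_All held 26.5% of the sum in LmHC and 9.07% in LmLC at 24 h, with levels of 118 FPKM and 43.5 FPKM (a log2 ratio of 1.42). At 0 h it held 17.7% in LmHC and 9.87% in LmLC. CL4458.Contig3_All, the leading contig of both lines, was within 2-fold, with 120 FPKM in LmHC and 220 FPKM in LmLC at 24 h. Its share was the larger one in LmLC at both times, with 26.9% in LmHC and 46.0% in LmLC at 24 h, beside 29.4% in LmHC and 44.7% in LmLC at 0 h. The contig highest in LmLC among those past 2-fold toward it was CL4458.Contig8_All, with 5.89 FPKM in LmHC and 20.0 FPKM in LmLC at 24 h.

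CL495 was near 0 at 0 h and abundant at 24 h in both lines, with its contigs in different proportions. Its 15 contigs summed to 552 FPKM in LmHC and 546 FPKM in LmLC at 24 h, but were listed at 0 in LmHC and at 0.64 FPKM in LmLC at 0 h. The sums of the lines at 24 h were nearly equal. CL495.Contig13_All had 52.9 FPKM in LmHC and 20.5 FPKM in LmLC at 24 h (a log2 ratio of 1.33). In the other direction, CL495.Contig4_All had 0.67 FPKM in LmHC and 37.3 FPKM in LmLC (a log2 ratio of -4.52), and CL495.Contig2_All had 0.25 FPKM in LmHC and 26.3 FPKM in LmLC (a log2 ratio of -4.45). The proportions of the lines differed by 20.4% of the cluster's FPKM.

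CL1068 leaned to LmLC as a sum, with 556 FPKM in LmHC and 804 FPKM in LmLC at 24 h (a log2 ratio of -0.53), and 277 FPKM in LmHC and 384 FPKM in LmLC at 0 h. Of its 10 contigs, 6 were past 2-fold toward LmLC and 1 toward LmHC. CL1068.Contig10_All had 2.51 FPKM in LmHC and 117 FPKM in LmLC at 24 h (a log2 ratio of -5.08), and was listed at 0 in LmHC with 13.2 FPKM in LmLC at 0 h. CL1068.Contig2_All went the other way, with 18.8 FPKM in LmHC and 2.08 FPKM in LmLC at 24 h (a log2 ratio of 2.68) and 13.7 FPKM in LmHC and 3.67 FPKM in LmLC at 0 h. The leading contig, CL1068.Contig9_All, held 59.8% of the sum in LmHC and 32.6% in LmLC at 24 h, although its levels of 332 FPKM and 262 FPKM were within 2-fold. At 0 h its share was 55.2% in LmHC and 52.3% in LmLC.

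**Figure D4:**
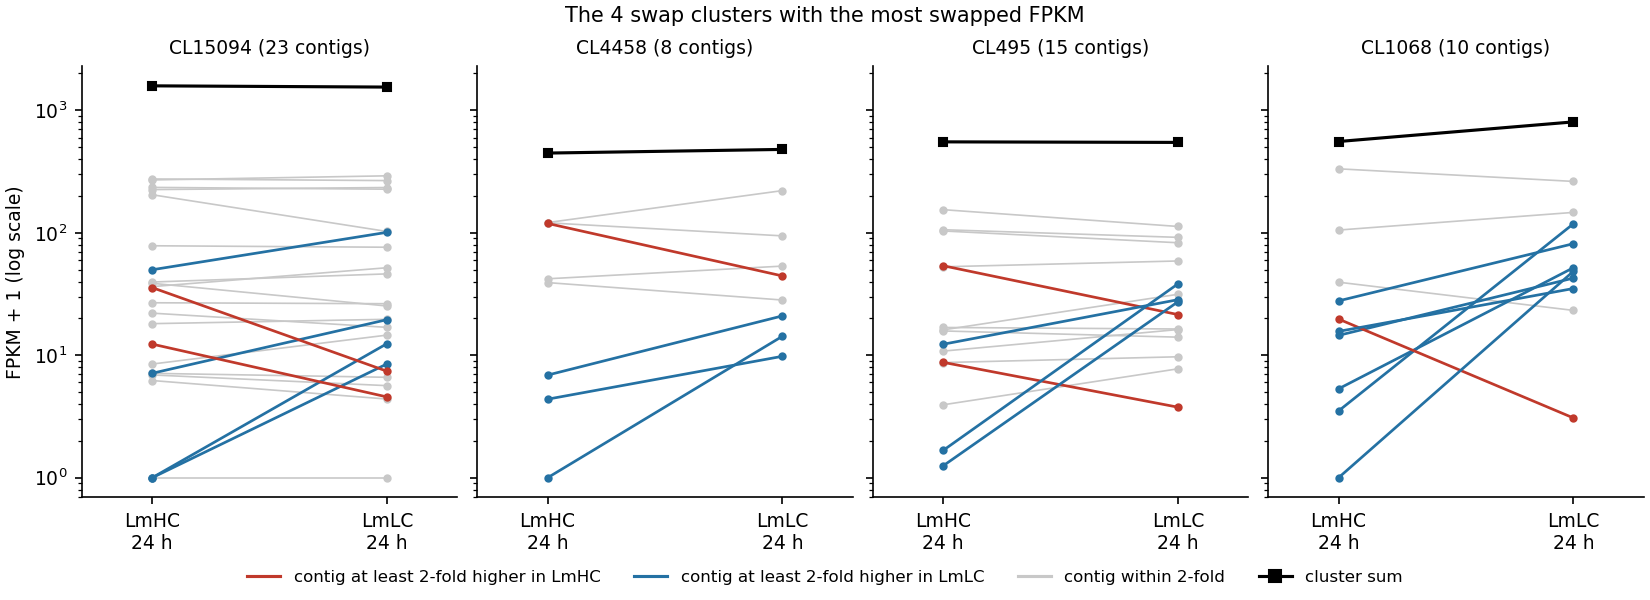
FPKM + 1 (log scale) of every contig in LmHC and LmLC at 24 h, for the 4 swap clusters with the most exchanged FPKM; a line joins the values of 1 contig and the squares are the cluster sums. The sums stay within 2-fold, with 1584 FPKM in LmHC and 1548 FPKM in LmLC for CL15094, while contigs past 2-fold cross from both sides.

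Counted in FPKM, differences that cancel within clusters were the smaller part of the total. The absolute differences of the 40063 clustered contigs summed to 141071 FPKM at 24 h, and those of their cluster sums to 99538 FPKM, so that 29.4% cancelled. At 0 h, 31.3% of 103388 FPKM cancelled. Clusters whose sum was past 2-fold held 7.77% of the 141071 FPKM, swap clusters 13.5% and clusters with differences in 1 direction only 38.4%. The remaining 40.4% lay in clusters with no contig past 2-fold. The share that cancelled was 1.88% in clusters whose sum was past 2-fold and 47.2% in swap clusters. The low and the high value both follow in part from the rules that chose these clusters. It was 34.6% in clusters with differences in 1 direction only and 23.9% in clusters with no contig past 2-fold.

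Over all passing contigs in clusters, the log2 ratios of contigs in 1 cluster were only loosely tied. Differences between clusters held 35.4% of their sum of squares at 24 h, where they hold 27.0% of the degrees of freedom. The mean square was 0.67 between clusters and 0.45 within, a ratio of 1.49, and at 0 h the ratio was 1.55. The tie was closer among the 3684 contigs of at least 20 FPKM at 24 h, in 1177 clusters with 2 or more such contigs. There, differences between clusters held 52.3% of the sum of squares and 31.9% of the degrees of freedom. The ratio of mean squares was 2.34, and at that level it was 1.65 at 0 h. Contigs of 1 cluster share libraries and fragments, so these ratios describe the table and are not a test.

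The leading contig changed hands in many clusters, mostly through small differences. Of 8657 clusters with a sum of 5 FPKM or more in both libraries at 24 h, 1299 (15.0%) had another leading contig in LmHC than in LmLC. At 0 h this was so for 934 of 8919 (10.5%). Neither leading contig was past 2-fold toward its line in 991 of the 1299 clusters. A single one was in 286, and both were in 22. At least 50% of the FPKM would have to pass to other contigs in 29 of the 8657 clusters (0.335%), and in 12 of 8919 at 0 h. The median of this share over the 8657 clusters was 8.11% at 24 h, and 6.43% at 0 h.

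Swaps became more frequent with cluster size, while sums past 2-fold were most frequent in clusters of 2 contigs. At 24 h the sum was past 2-fold, either way, in 460 of all clusters (4.25%): in 6.04% of 4667 clusters with 2 contigs, in 2.33% of 1333 clusters with 6 to 10 and in 2.42% of 331 clusters with 11 or more. Swaps were found in 0.279%, 8.1% and 30.2% of the same clusters. A larger cluster has more contigs that can pass the limit, so the rise of swaps with size is in part given by the rule. It was also present at 1 level: among clusters with a mean sum of 20 to 100 FPKM, swaps were found in 0.266% of 753 clusters with 2 contigs and in 19.8% of 111 clusters with 11 or more. At that level the share with a sum past 2-fold showed no steady fall with size, at 3.72% for 2 contigs, 2.98% for 3, 2.27% for 4 to 5, 2.65% for 6 to 10 and 3.6% for 11 or more.

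**Figure D5:**
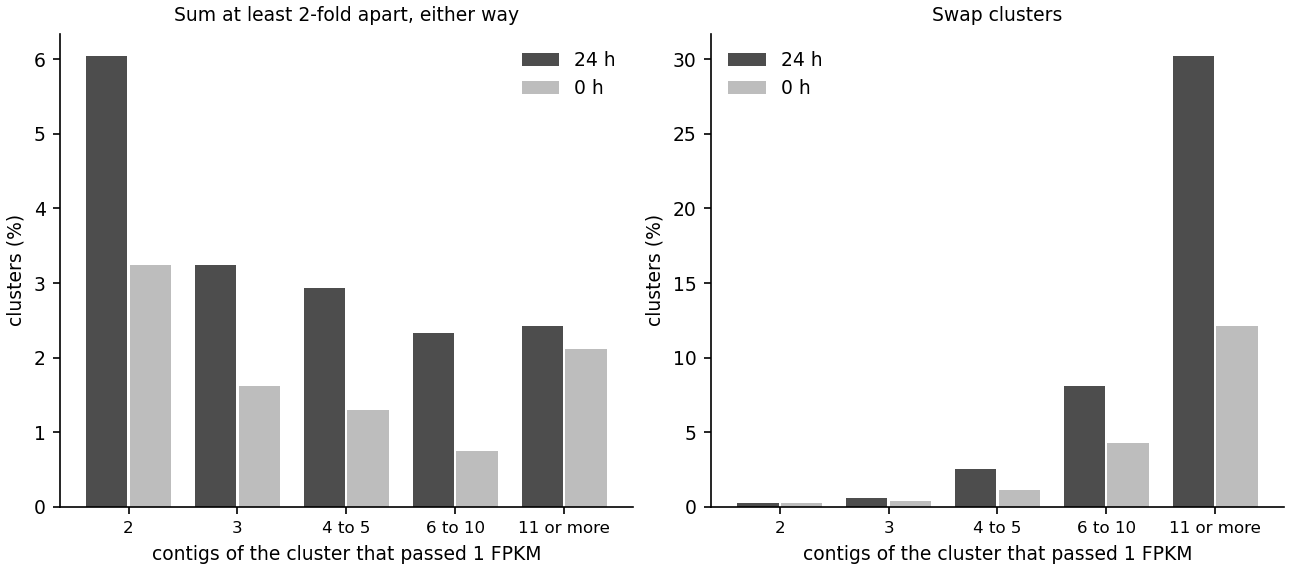
Share of clusters (%) whose sum was at least 2-fold apart either way (left) and share of swap clusters (right), by the number of contigs that passed 1 FPKM, at 24 h and 0 h. At 24 h the left share is 6.04% for 2 contigs and 2.42% for 11 or more, and the right share is 0.279% and 30.2%.

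By level, sums past 2-fold became fewer and swaps more frequent. At 24 h the sum was past 2-fold in 6.17% of 1654 clusters with a mean sum under 5 FPKM, in 5.19% of 4662 at 5 to 20, in 2.88% of 3397 at 20 to 100 and in 1.64% of 1099 at 100 or more. Swaps were found in 0.242%, 0.901%, 3.18% and 12.2%. The abundant clusters were also the larger ones, with a median of 6 contigs at 100 FPKM or more and of 2 under 5 FPKM. Toward LmHC, 6 sums of at least 100 FPKM were past 2-fold, and 12 toward LmLC.

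Up to 100 FPKM, the share past 2-fold was larger among stand-alone contigs than among contigs in clusters, a difference that was not tested. Toward LmHC, 1557 stand-alone contigs (5.58%) were past 2-fold at 24 h, and toward LmLC 2247 (8.06%). At a mean of 5 to 20 FPKM, 14.1% of 5410 stand-alone contigs and 9.16% of 12561 contigs in clusters were past 2-fold at 24 h. At 20 to 100 FPKM the shares were 7.23% and 5.7%, and at 100 FPKM or more 1.41% of 355 and 2.4% of 751. The largest ratios were those of contigs near 0 in a line. Unigene35023_All had 82.8 FPKM and Unigene33531_All 12.9 FPKM in LmHC at 24 h, with 0 listed in the remaining 3 libraries for each. Unigene36241_All had 0.12 FPKM in LmHC and 124 FPKM in LmLC at 24 h (a log2 ratio of -6.81), and was listed at 0 in LmHC with 173 FPKM in LmLC at 0 h. Unigene38632_All was listed at 0 in both LmHC libraries, and had 92.4 FPKM at 24 h and 7.95 FPKM at 0 h in LmLC. Of the contigs at least 8-fold apart, 12 of 22 (54.5%) toward LmHC and 286 of 596 (48.0%) toward LmLC stood alone. These shares were near those of contigs past 2-fold, at 49.3% toward LmHC and 44.4% toward LmLC. Of all 70886 contigs, 27886 stood alone.

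Most differences of 24 h were not past 2-fold at 0 h. The 0 h libraries entered the mean of at least 1 FPKM that chose the contigs, but not the 24 h ratios. Of the 186 clusters higher in LmHC at 24 h, 16 (8.6%) were past 2-fold the same way at 0 h, 4 the other way and 166 were within 2-fold. Of the 274 higher in LmLC, 56 (20.4%) were past 2-fold the same way at 0 h, 2 the other way and 216 within 2-fold. The background at 0 h was 0.86% of all clusters toward LmHC and 1.3% toward LmLC. Single contigs past 2-fold toward LmLC were seen again at 0 h for 173 of 465 (37.2%) in swap clusters, 526 of 1700 (30.9%) in clusters with 1 direction and 113 of 469 (24.1%) in clusters that moved as a sum. Toward LmHC these numbers were 56 of 401 (14.0%), 63 of 746 (8.45%) and 23 of 285 (8.07%). Among all contigs, 4.43% were past 2-fold toward LmLC and 2.48% toward LmHC at 0 h. Of the 288 swap clusters of 24 h, 44 (15.3%) were swap clusters at 0 h, which is 31.0% of those at 0 h. A further 120 (41.7%) had no contig past 2-fold at 0 h. Among all clusters at 0 h, 1.31% were swap clusters and 83.6% had a sum within 2-fold and no contig past it. By size, 4.28% of clusters with 6 to 10 contigs and 12.1% with 11 or more were swap clusters at 0 h. The swap clusters of 24 h were large, and the 15.3% was not matched for size.

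The sums of the clusters that differed changed with time in both lines, which is given as a description, since the 24 h libraries chose them. The 186 clusters higher in LmHC had median sums of 13.0 FPKM in LmHC and 4.32 FPKM in LmLC at 24 h, and of 7.44 FPKM in LmHC and 4.92 FPKM in LmLC at 0 h. Their sums in LmHC were at least 2-fold higher at 24 h than at 0 h in 77 clusters and at least 2-fold lower in 30. In LmLC they were higher in 52 and lower in 69. The 274 clusters higher in LmLC had median sums of 4.20 FPKM in LmHC and 15.3 FPKM in LmLC at 24 h, and of 4.53 FPKM in LmHC and 7.73 FPKM in LmLC at 0 h. In LmHC, 62 of them were higher at 24 h than at 0 h and 78 lower, and in LmLC 133 were higher and 31 lower. Over all 10812 clusters, 21.9% were higher and 37.6% lower at 24 h in LmHC, and 22.1% higher and 32.0% lower in LmLC. A change from 0 h to 24 h may belong to cadmium or to time alone, and these cannot be told apart without untreated seedlings of 24 h.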

How the data were processed

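The members and rules were chosen with earlier results of these data known. Per the file headers, the authors deposited FPKM values, 1 column per library, and the values have 2 decimals. Bowtie2 2.2.5 and RSEM 1.2.8 are named in the submitters' processing notes. For the assembler, contig lengths and filters the sources used here give nothing. No reference was used. Columns were matched to samples by title, and groups were taken from the titles.

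From the deposited FPKM, contigs with a mean of at least 1 over the 4 libraries were kept. Log2 ratios used a pseudocount of 1, and a contig or cluster sum was past 2-fold at a log2 of at least 1 in size. Clusters needed 2 or more passing contigs, and sums ran over those. With 1 library per group no test was possible. Named were the 2 largest and 2 smallest ratios of stand-alone contigs, of cluster sums and of clusters whose 3 or more contigs were all past 2-fold, and the 4 swap clusters with the most exchanged FPKM. A cluster's exchanged FPKM is its summed absolute contig difference less its absolute sum difference, divided by 2. The contig highest toward each line could be named inside these clusters. Further contigs named there fall outside this rule and were chosen with their values known. Clusters outside the rule are said to have been chosen after their values were seen. The rules were tested on simulated data with counting error at an assumed depth. Changes were made only in clusters whose passing contigs had at least 5 FPKM, as 4-fold whole changes or exchanges between unlike contigs. The simulation held no spread between plants and no fragments shared by contigs. It therefore does not show how the rules act on low contigs or small differences. Alternatives were pseudocounts, filters, scalings, a 4-fold limit and sums over all listed contigs. Python 3.11.15, numpy 2.4.6, pandas 2.3.3, scipy 1.17.1 and matplotlib 3.10.9 were used.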

Additional observations from a re-analysis of the deposited data

Results flagged for a closer look

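The line difference of a cluster sum turned between the times in 6 of 10812 clusters. In 4 clusters the sum was past 2-fold toward LmHC at 24 h and toward LmLC at 0 h, and in 2 clusters it was past 2-fold toward LmLC at 24 h and toward LmHC at 0 h. The single pair of libraries at each time went opposite ways, and the difference was not tested. These clusters are named here after their values were seen. CL5256, described above, is the one with the largest ratio at both times. CL12995 had 6.03 FPKM in LmHC and 1.79 FPKM in LmLC at 24 h, and 18.1 FPKM in LmHC and 37.9 FPKM in LmLC at 0 h. CL13876 had 7.56 FPKM in LmHC and 2.47 FPKM in LmLC at 24 h, and 0.30 FPKM in LmHC and 1.80 FPKM in LmLC at 0 h. CL7546 had 3.97 FPKM in LmHC and 1.35 FPKM in LmLC at 24 h, and 3.21 FPKM in LmHC and 7.88 FPKM in LmLC at 0 h. The remaining 2 leaned to LmLC at 24 h. CL12772 had 10.1 FPKM in LmHC and 21.9 FPKM in LmLC at 24 h, and 38.7 FPKM in LmHC and 18.3 FPKM in LmLC at 0 h. CL660 had 7.95 FPKM in LmHC and 19.7 FPKM in LmLC at 24 h, and 236 FPKM in LmHC and 117 FPKM in LmLC at 0 h. Apart from CL5256, the ratios of these clusters lay close to the 2-fold limit, with log2 sizes from 1.00 to 1.33.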

How the results depend on the processing

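Of 73 alternative values, 33 stayed within 1.5 times the reported count and 40 did not, where any change of the share that cancels within clusters was counted as a change; the cause was not tested. Values follow in the order contigs higher in LmHC, contigs higher in LmLC, sums higher in LmHC, sums higher in LmLC, swap clusters, contigs that moved with their sum and contigs in swaps. A pseudocount of 0.1 gave 6961, 8854, 300, 380, 630, 1276 and 1914, and one of 5 gave 366, 1592, 47, 122, 41, 197 and 120. Without a filter the values were 4762, 7416, 399, 515, 465, 1265 and 1449, and when contigs needed a mean of 5 FPKM they were 707, 1165, 53, 76, 59, 229 and 158, with another leading contig in 663 clusters. A 4-fold limit gave 231, 1900, 10, 55, 25, 96 and 71. Median-of-ratios scaling gave 4163, 5087, 244, 243, 354, 811 and 1071. The 29.4% that cancelled was 30.6% without a filter, 24.4% at a mean of 5, 30.0% with the mean taken at 24 h, 29.7% with equal totals, 29.6% with median-of-ratios scaling and 31.3% with sums over all listed contigs. Differences in 1 direction only were the largest class of clustered contigs past the limit under each setting, from 54.2% without a filter to 83.7% at the 4-fold limit. Swaps held 21.2% of these contigs and clusters that moved as a sum 18.5% in the main setting. The order was the other way with a pseudocount of 5 (11.3% and 18.6%), a mean of 5 FPKM (14.5% and 21.1%) and a 4-fold limit (6.88% and 9.30%). Under the remaining settings swaps stayed the larger class. No paired analysis was possible because each group had 1 library. Depth is unknown, so counting error in low contigs could not be given.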

Other observations

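Clusters with 2 passing contigs show the simplest case. Of 4667 at 24 h, 28 had both contigs past 2-fold toward LmHC, 62 had both toward LmLC, 16 had 1 each way and 552 had 1 contig past 2-fold. At 0 h these numbers were 14, 40, 11 and 357. Across the 4667 clusters the log2 ratios of the 2 contigs had a Spearman's rho of 0.25 at 24 h and 0.14 at 0 h, a description of contigs that share libraries and fragments. Where both contigs had a mean of at least 10 FPKM at that time, rho was 0.50 over 346 clusters at 24 h and 0.16 over 546 clusters at 0 h.

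The largest exchanges of proportion among swap clusters with at least 5 FPKM in both lines, chosen after the values were seen, were in small clusters. In CL4816, CL4816.Contig1_All had 5.99 FPKM in LmHC and 1.98 FPKM in LmLC at 24 h, and CL4816.Contig2_All was listed at 0 in LmHC and had 6.36 FPKM in LmLC. In CL9064, CL9064.Contig1_All had 5.47 FPKM in LmHC and 1.89 FPKM in LmLC at 24 h. CL9064.Contig2_All was listed at 0 in both LmHC libraries and had 5.39 FPKM at 24 h and 1.24 FPKM at 0 h in LmLC.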
